A study of Arabidopsis thaliana with 51 samples.

Results

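Transcript levels of 5 genes that act on DNA breaks and on recombining DNA were followed across the organs of Arabidopsis thaliana, the thale cress. They are ATSPO11-1 (AT3G13170) and SPO11-2 (AT1G63990), and the RecQ helicase genes RECQ4B (AT1G60930), RECQSIM (AT5G27680) and RECQI1 (AT3G05740). The members were chosen by name, as the genes that the annotation of the probes assigns to these symbols, by a rule that uses no measured value but was drawn up with earlier results of these data known. Each had 1 probe, so that 5 of the 1747 genes named on the array are described.

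The study compared RNA of plant organs on 51 two-colour arrays of 27648 spots. On 45 arrays cultured cells supplied the opposing RNA, a common reference for 17 organ groups, and 6 arrays set an organ in light directly against the same organ in dark. The flower groups were sepal (2 arrays), petal (3), stamen (3), the pistil labelled 1DBP (2) and the pistil labelled 1DPP (4), and the fruit groups were the siliques labelled 3DPP (3) and 8DPP (3). The vegetative groups were rosette leaf, cauline leaf and stem (3 arrays each), cotyledon in light (2) and dark (3), hypocotyl in light (2) and dark (2), and root in light (2) and dark (2), and germinating seed (3 arrays) stood apart from both.

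The stage codes (1DBP, 1DPP, 3DPP, 8DPP) are kept as labelled, because no source used here spells them out. Genotype, plant age, light regime and the line of cultured cells are not given in the sources used here. Nor do the labels say whether arrays of a group came from separate plants, and p-values therefore reflect only array-to-array spread, possibly technical. The same cultured-cell RNA stands under all 17 groups as denominator, and no absolute level can be read from a ratio to it.

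SPO11 proteins are relatives of the catalytic subunit of an archaeal topoisomerase and make the DNA double-strand breaks that start meiotic recombination. In Arabidopsis, SPO11-1 and SPO11-2 are both needed for these breaks, and meiosis takes place in young anthers and ovules. RecQ helicases unwind DNA at stalled replication forks and at recombination intermediates, and in plants they form a family with members of differing roles. RECQ4B is the close paralogue of RECQ4A, a functional counterpart of the human BLM helicase. In somatic cells of Arabidopsis, loss of RECQ4A raises recombination, whereas RECQ4B is reported to favour crossing over. RECQSIM is a plant RecQ protein with an insertion in its helicase domain, and RECQI1 is a short member of the family.

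Values are log2 ratios of organ over cultured cells, each array centred on its median. That direction is likely, not known. It was taken from the photosynthesis genes PSAN and LHCB4.1, called higher in light than in dark cotyledons (PSAN by 4.26). The other photosynthesis markers, LHB1B2 (0.87) and ATPC1 (1.41), were not called in that comparison. It was also taken from the 2 light root arrays, labelled in opposite channels, which correlated at 0.75 over 25305 probes. Before centring, array medians ran from -0.60 to 1.06, and every value below is relative to its array's median. Values per array numbered 7410 (8DPP silique replicate 3) to 26657, and arrays of a group correlated at 0.47 to 0.94. On the arrays against cultured cells, the organ was in channel 1 for rosette leaf, cauline leaf, stem and 1 light root array, and in channel 2 elsewhere. In every group but light root, dye and organ therefore cannot be told apart in a ratio to cultured cells. Labelled tissues carried their markers: the pollen genes ACT12, VGD1 and TUA1 averaged 6.42, 8.03 and 2.93 in stamens, and the ovule gene INO averaged 3.61 in 1DBP pistils, 3.05 in 1DPP pistils and 3.19 in 3DPP siliques. VGD1 also averaged 4.96 in petals and 3.81 in sepals. In bulk organ RNA, fewer cells of a type and less RNA per cell cannot be told apart.

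The 5 probes were not equally well measured. RECQ4B had a value on all 45 organ arrays, which 3232 of 27600 probes (11.7%) did. RECQSIM and RECQI1 had 43 values each, the same as the median probe, and both SPO11 probes had 36. Only 11.9% of probes had fewer values than the SPO11 probes. RECQSIM had no value in light hypocotyl and SPO11-2 none in 8DPP siliques. ATSPO11-1 had 1 value in each of cauline leaf, 1DBP pistil, dark root and 8DPP silique, SPO11-2 had 1 in dark hypocotyl and 1 in sepal, and RECQI1 had 1 in dark hypocotyl. The SD between arrays of a group, pooled over groups on the log2 scale, was 0.43 for RECQ4B, 0.63 for ATSPO11-1, 0.78 for both RECQSIM and RECQI1, and 1.20 for SPO11-2, against a median of 0.73 over all probes. Of all probes, 86.4% had a smaller SD than SPO11-2 and 23.0% a smaller one than RECQ4B.

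**Figure D1:**
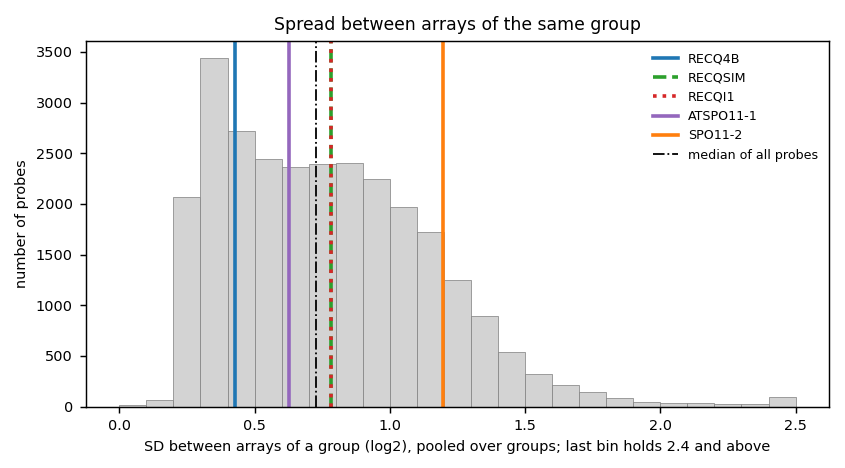
Histogram of the SD between arrays of the same group (x axis, log2 scale, pooled over groups) for all probes, with the number of probes on the y axis. Vertical lines mark the 5 genes and the median of all probes: RECQ4B lies at 0.43, left of the median of 0.73, and SPO11-2 at 1.20, far to its right, while the lines of RECQSIM and RECQI1 fall together at 0.78.

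ATSPO11-1 stood highest in 3DPP siliques and lowest in rosette leaf. Its 2 values in 3DPP siliques were 3.82 and 2.25, and the single value in 1DBP pistils was 2.30. Sepals gave 1.52 and 2.06, dark hypocotyls 1.71 and 1.69, and the single dark root array 1.74. Rosette leaves gave -1.95, -0.38 and -0.28, the only group with at least 2 arrays in which every array lay below 0.
Stamens, whose anthers form the pollen, were not among the high groups: they gave -0.14, 0.59 and -0.57. The labels give no stage for these stamens, and whether they held cells in meiosis is not known. Of 13 groups with 2 or more values, 4 were called higher than cultured cells and none lower, where a call is an adjusted p under 0.05 with at least a 2-fold change. These were 3DPP silique, sepal, dark hypocotyl and germinating seed, the last with 1.75, 0.73 and 0.72.

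SPO11-2 stood highest in 1DPP pistils, where 3 of the 4 arrays gave 3.27, 3.84 and 2.36 and replicate 2 had no value. Of the groups with at least 2 values, cotyledons followed, with 2.34 and 2.29 in light and 2.92 and 1.32 in dark. These 3 groups were the only ones called against cultured cells of 14 tested, all higher. At the low end, cauline leaves gave -2.13, -0.13 and -1.35 and light hypocotyls -1.47 and -0.77.
Arrays of one group often disagreed for this probe. Petals gave 2.31, 2.16 and -1.20, and rosette leaves 2.26, -0.17 and -0.79, so that in each of these groups 1 array lay on the other side of 0 from the rest. Stamens, with 0.80, 1.13 and -0.36, lay in the middle of the order.

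RECQ4B had its highest mean in 1DPP pistils, with 0.63, 1.87, 0.85 and 1.73 on the 4 arrays, and in germinating seed, with 0.77, 1.06 and 1.37. Both were called higher than cultured cells. Sepals were the lowest group, with -1.37 and -1.13, and the only one called lower of 17 tested. Dark cotyledons (-0.68, -1.19 and -0.69) and 3DPP siliques (-0.94, -1.02 and -0.82) also lay below 0 on every array, and their means were under the 2-fold limit. The other 12 groups had means between -0.62 in dark root and 0.73 in light hypocotyl. Among them, dark root also lay below 0 on every array (-0.94 and -0.29).

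RECQSIM had a mean above 0 in all 16 groups with a value, and 36 of its 43 arrays lay above 0. It was highest in 1DPP pistils, with 2.48, 3.10, 1.65 and 3.21, followed by germinating seed, with 2.11, 2.02 and 1.80. The lowest means were those of rosette leaf (0.13), dark root (0.18) and 3DPP silique (0.22). It was called higher than cultured cells in 7 of 16 groups and lower in none. The 7 were 1DPP pistil, germinating seed, 1DBP pistil, light root, dark hypocotyl, petal and dark cotyledon.

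RECQI1 ran the other way. Only 5 of its 43 arrays lay above 0: the 3 of germinating seed (1.98, 1.13 and 0.54), the single dark hypocotyl array (2.30) and 1 of the 2 dark root arrays (0.65, with -0.33 on the other). Dark cotyledons were lowest, with -1.14, -2.63 and -2.49, and 1DBP pistils gave -3.01 and -1.02. Of 16 groups tested, germinating seed was called higher than cultured cells, and 8 groups were called lower: cauline leaf, light and dark cotyledon, petal, stamen, both pistil groups and 3DPP silique. Since the ratio to cultured cells sets the 0, a gene below 0 in most organs may equally be described as higher in cultured cells.

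**Figure D2:**
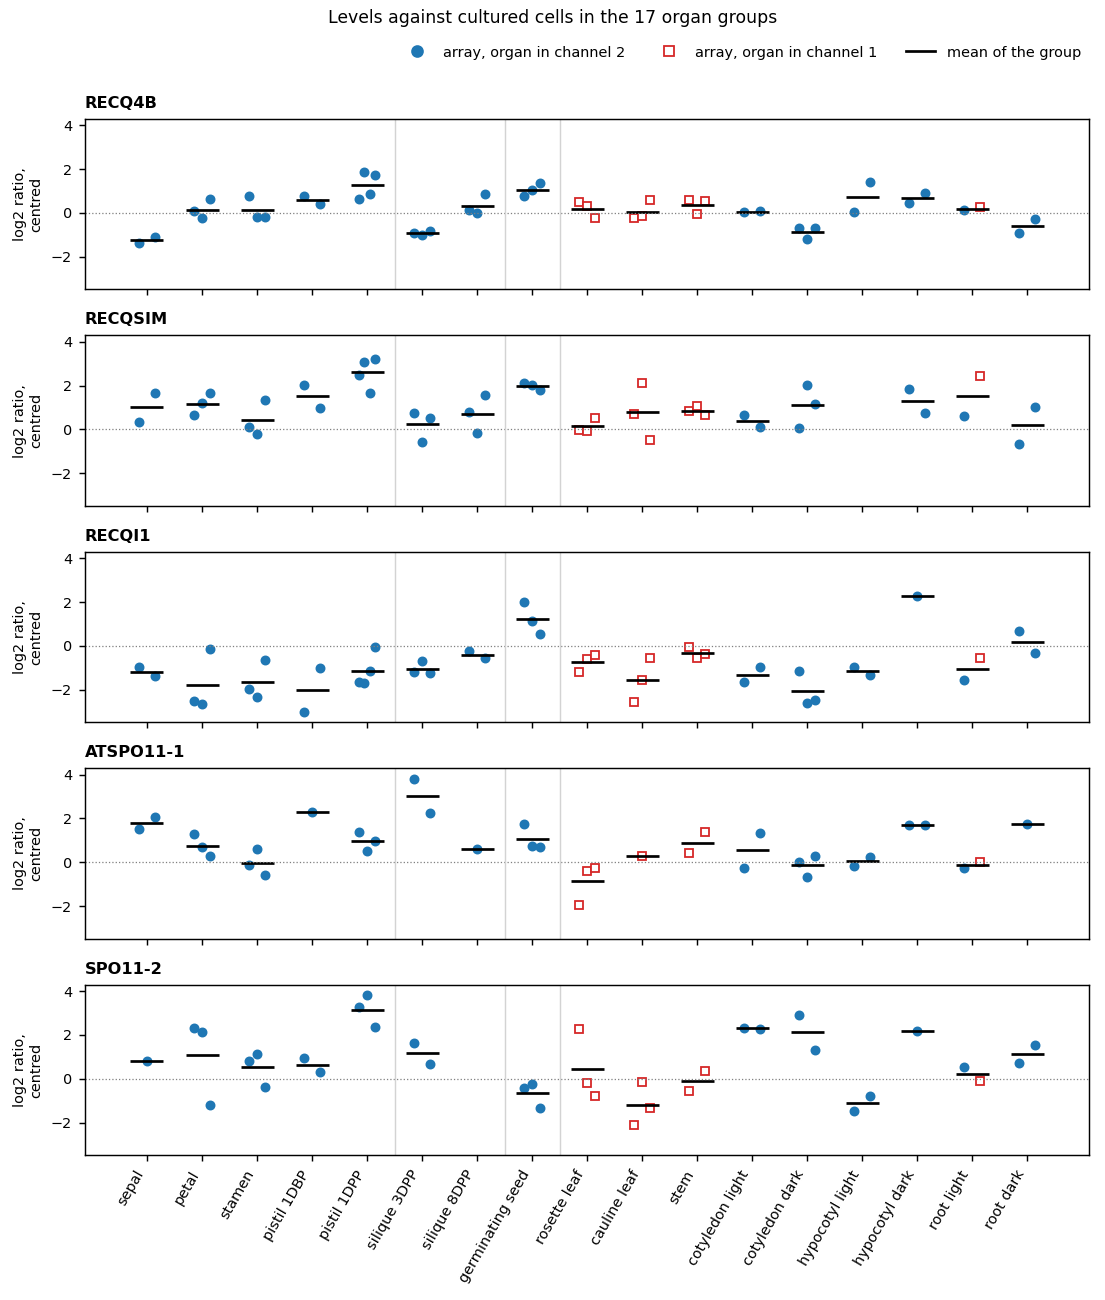
Log2 ratio of organ over cultured cells, centred per array (y axis), of the 5 genes in the 17 organ groups (x axis, flower groups first, then siliques, germinating seed and vegetative groups). Each point is 1 array, filled where the organ was in channel 2 and open where it was in channel 1, and the bar is the group's mean. RECQSIM lies above 0 on 36 of 43 arrays and RECQI1 on 5 of 43, and 1DPP pistils have the highest mean of RECQ4B, RECQSIM and SPO11-2.

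Against cultured cells, the 5 genes together gave 26 calls in 76 tests (34.2%), 17 higher and 9 lower, where all probes gave calls in 42.4% of their tests, 89503 higher and 88389 lower. The split of the 5 genes' calls moved with the scaling, to 25 higher and 6 lower without centring, 22 and 4 after scaling to a common median absolute value, and 21 and 5 with centring on named probes. With the replicate number as a further term in the fit (replicate block) it was 12 higher and 11 lower. In the flower, 2 of 4 members tested were called in sepals (50.8% of all probes called), 2 of 5 in petals (45.2%), 1 of 5 in stamens (48.6%), 2 of 4 in 1DBP pistils (40.7%) and 4 of 5 in 1DPP pistils (43.1%). In fruit and seed, 2 of 5 were called in 3DPP siliques (42.8%), 0 of 3 in 8DPP siliques (38.5%) and 4 of 5 in germinating seed (58.6%). In seedlings, 2 of 5 were called in light cotyledons (39.8%), 3 of 5 in dark cotyledons (40.9%), 0 of 4 in light hypocotyls (41.2%), 2 of 3 in dark hypocotyls (46.5%), 1 of 5 in light roots (33.0%) and 0 of 4 in dark roots (32.8%). In leaves and stem, 0 of 5 were called in rosette leaf (41.6%), 1 of 4 in cauline leaf (38.3%) and 0 of 5 in stem (38.5%). Read against these shares, calls of the 5 genes were no more frequent than calls in general.
Single arrays and centring bore on these calls. Of the 26, 20 were lost under at least 1 alternative tried, 16 of them when 1 array of the group was left out. Without centring, 4 were lost, all of them lower calls, and 9 others were gained, 8 of them higher. The 6 calls that held under each of these alternatives were ATSPO11-1 in 3DPP silique and dark hypocotyl, SPO11-2 in 1DPP pistil, RECQSIM in 1DPP pistil and germinating seed, all higher, and RECQI1 in dark cotyledon, lower.

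Differences among the 17 organ groups were tested with a moderated F-test. RECQ4B, the only one of the 5 with at least 2 values in every group, differed among them (F = 6.79, adjusted p = 2.6e-06), as did 94.8% of the 11011 probes tested. The range of its group means, 2.52, was smaller than the median range of 3.34 over these probes, and 21.4% of them had a smaller one. Each gene was also tested over the groups in which it had at least 2 values, a test added after the data had been seen, in which 83.2% of probes passed. All 5 passed it, with adjusted p of 0.00012 for ATSPO11-1 over 13 groups, 0.0093 for SPO11-2 over 14, 4.4e-06 for RECQ4B over 17, 0.019 for RECQSIM over 16 and 0.0031 for RECQI1 over 16. Placed in order of their means, most neighbouring groups overlapped in their arrays: 12 of 16 neighbouring pairs for ATSPO11-1, 13 of 15 for SPO11-2, 14 of 16 for RECQ4B, 15 of 15 for RECQSIM and 15 of 16 for RECQI1. The order of groups is therefore resolved mainly between its ends.

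None of the 5 genes was called different between flower organs and vegetative organs. RECQ4B averaged 0.18 over the 5 flower groups and 0.09 over the 9 vegetative groups, a difference of 0.09 ± 0.15 (standard error, adjusted p = 0.63), where 22.2% of the probes tested were called. The 95% interval of that difference, -0.22 to 0.41, lies inside the 2-fold limit on both sides. Like the intervals below, it reflects the spread between arrays and holds for the average of these groups only. It leaves out the spread among organs, and the flower means of RECQ4B ran from -1.25 in sepals to 1.27 in 1DPP pistils. The other 4 lacked values in a group and were compared over the groups with at least 2 values, a comparison added after the data had been seen, in which 24.3% of probes were called.
ATSPO11-1 averaged 0.87 in flower groups and 0.30 in vegetative groups, a difference of 0.57 ± 0.25 (adjusted p = 0.060). SPO11-2 averaged 1.35 in flower groups and 0.47 in vegetative groups, a difference of 0.88 ± 0.44 (adjusted p = 0.10). The interval of SPO11-2, -0.04 to 1.80, is the widest of the 5. The intervals of these 4 genes all reach past the 2-fold limit, which a missed threshold does not show to be absent.
RECQSIM averaged 1.34 in flower groups and 0.78 in vegetative groups, a difference of 0.56 ± 0.27 (adjusted p = 0.090). RECQI1 averaged -1.55 in flower groups and -1.01 in vegetative groups, a difference of -0.54 ± 0.27 (adjusted p = 0.10). SPO11-2 was called higher in flower groups without petal replicate 3 (1.17, adjusted p = 0.020) and with uncentred arrays (1.14, adjusted p = 0.041). It was also called with 1 light cotyledon array left out (1.14, adjusted p = 0.044) or without dark cotyledon replicate 2 or 3 (1.12, adjusted p = 0.046), where the group, high for this gene, drops out of the comparison because it has under 2 values left. Against only those vegetative groups with the organ in channel 2, its difference was 0.24 ± 0.54 (adjusted p = 0.77), and that of ATSPO11-1 was 0.32 ± 0.28 (adjusted p = 0.41).

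**Figure D3:**
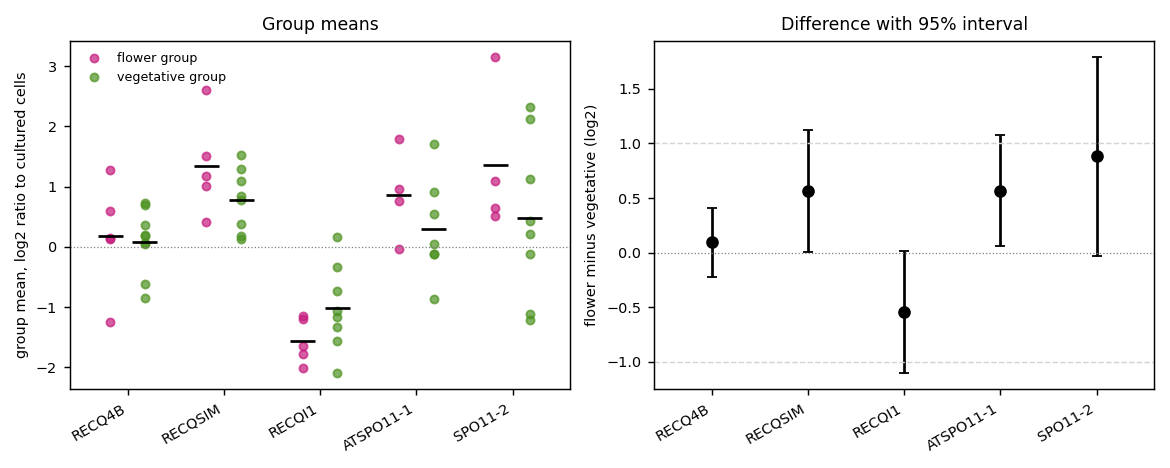
Left: group means (y axis, log2 ratio to cultured cells, centred) of the 5 genes, with 1 point per flower group and per vegetative group with at least 2 values, and bars for the mean over groups. Right: the difference of flower minus vegetative groups with its 95% interval (bars) and the 2-fold limits dashed; all 5 points lie inside those limits, from -0.54 for RECQI1 to 0.88 for SPO11-2.

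Within the flower, stamens were set against petals and sepals, a comparison in which 7.36% of probes were called, and none of the 4 members tested was. ATSPO11-1 gave -0.14, 0.59 and -0.57 in stamens, against 1.28, 0.69 and 0.29 in petals and 1.52 and 2.06 in sepals. The stamen arrays overlapped those of petals and lay below both sepal arrays. The difference was -1.31 ± 0.46 (adjusted p = 0.078). RECQ4B differed by 0.68 ± 0.32 (adjusted p = 0.23), RECQSIM by -0.68 ± 0.56 (adjusted p = 0.58) and RECQI1 by -0.16 ± 0.56 (adjusted p = 0.93).
The 1DBP pistils were likewise set against petals and sepals, where 34.1% of probes were called. RECQ4B was higher in the pistils, with 0.79 and 0.42, against 0.09, -0.25 and 0.61 in petals and -1.37 and -1.13 in sepals. The difference was 1.15 ± 0.37 (adjusted p = 0.014), although the pistil arrays overlapped those of petals. It was not called with uncentred arrays (0.66, adjusted p = 0.21), after scaling to a common median absolute value (0.66, adjusted p = 0.23), with centring on named probes (0.99, just under the 2-fold limit) or without 1DBP replicate 2 (0.96, adjusted p = 0.17). RECQSIM (0.41 ± 0.64) and RECQI1 (-0.53 ± 0.64) were not called. The dividing-cell markers TOPII, PRL and HTB2, 3 of 3 in that list, were called higher in the same comparison by 4.49, 4.72 and 5.15, and so was the ovule gene INO by 3.47. The pollen genes VGD1 (-3.16) and TUA1 (-1.27) were called lower in it, and the third, ACT12, had too few values. The part of these markers in the RECQ4B difference was not tested.

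From pistil to silique, RECQ4B and RECQSIM fell and ATSPO11-1 rose between the 1DPP pistil and the 3DPP silique. Between the 2 pistil stages, 1.08% of probes were called and none of the 4 members tested was. SPO11-2 gave 3.27, 3.84 and 2.36 in 1DPP pistils, against 0.97 and 0.32 in 1DBP pistils. These arrays do not overlap, and the difference was 2.52 ± 1.04, with an adjusted p of 0.39 over all probes and an unadjusted p of 0.024. RECQSIM differed by 1.11 ± 0.66 (adjusted p = 0.64), RECQI1 by 0.87 ± 0.66 (adjusted p = 0.75) and RECQ4B by 0.67 ± 0.38 (adjusted p = 0.60). ATSPO11-1, with 1 value in 1DBP pistils, was not tested.

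Between the 3DPP silique and the 1DPP pistil, 3 of 5 members were called, where 2.85% of all probes were. RECQ4B gave -0.94, -1.02 and -0.82 in 3DPP siliques, against 0.63, 1.87, 0.85 and 1.73 in 1DPP pistils. The groups lie on opposite sides of 0 without overlap, and the difference was -2.20 ± 0.34 (95% interval -2.88 to -1.51, adjusted p = 0.00011). This call held under each alternative run for it, every array left out in turn included.
RECQSIM gave 0.77, -0.60 and 0.50 in 3DPP siliques, against 2.48, 3.10, 1.65 and 3.21 in 1DPP pistils. These groups do not overlap either, and the difference was -2.38 ± 0.59 (adjusted p = 0.017). The call was lost without 3DPP replicate 2 (-1.97, adjusted p = 0.13), without 1DPP replicate 2 (adjusted p = 0.058) or 4 (adjusted p = 0.057), and with only the arrays of both groups in the fit (adjusted p = 0.069).
ATSPO11-1 moved the opposite way, with 3.82 and 2.25 in 3DPP siliques, against 1.40, 0.52 and 0.95 in 1DPP pistils. The arrays do not overlap, and the difference was 2.08 ± 0.57 (adjusted p = 0.043). Without 3DPP replicate 1 it was 1.30 (adjusted p = 0.45). Without 3DPP replicate 3 it was 2.87 (adjusted p = 0.027), and without 1DPP replicate 1, 2 or 3 it was 1.86 to 2.30 and not called (adjusted p from 0.055 to 0.14). Leaving out 3DPP replicate 2 or 1DPP replicate 4, on which this probe has no value, left it at 2.08 and still moved the adjusted p to 0.054 and 0.050, so that the call lies at the threshold. With 1 silique value left, that value is assumed to vary like those of the other groups. With uncentred arrays it was 1.82 (adjusted p = 0.098), and with centring on named probes 2.02 (adjusted p = 0.054).
SPO11-2 gave 1.63 and 0.69 in 3DPP siliques, against 3.27, 3.84 and 2.36 in 1DPP pistils, a difference of -2.00 ± 1.04 (adjusted p = 0.39). RECQI1 differed by 0.09 ± 0.58 (adjusted p = 0.97). The dividing-cell markers TOPII, PRL and HTB2 differed by -1.01, 1.17 and -0.67 in this comparison, and 0 of these 3 were called. Pollen markers averaged 0.75 in 3DPP siliques and 4.17 in 1DPP pistils for ACT12, 4.27 and 3.58 in the same groups for VGD1, and -1.04 and -0.87 for TUA1. Of these 3, ACT12 was called (-3.42). Of the photosynthesis markers, 1 of the 2 LHCB4.1 probes was called higher in 3DPP siliques (1.14). The part of these markers in the members' differences was not tested.

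Between the 8DPP and the 3DPP silique, RECQ4B rose again. It gave 0.15, -0.02 and 0.85 in 8DPP siliques, against -0.94, -1.02 and -0.82 in 3DPP siliques. The groups do not overlap, and the difference was 1.25 ± 0.36 (adjusted p = 0.015), in a comparison that called 15.0% of probes. The call was lost without 8DPP replicate 3 (0.99, adjusted p = 0.082), the array with the fewest values, and with only these arrays in the fit (adjusted p = 0.083). RECQSIM (0.50 ± 0.63, adjusted p = 0.64) and RECQI1 (0.64 ± 0.70, adjusted p = 0.58) were not called. The single ATSPO11-1 value in 8DPP siliques was 0.60, and neither SPO11 gene had the values needed for the test.
Taking both siliques against both pistils, in which 9.88% of probes were called, 2 of the 3 members tested were called. RECQ4B averaged -0.30 over siliques and 0.94 over pistils, a difference of -1.24 ± 0.26 (adjusted p = 0.0012). RECQSIM averaged 0.47 over siliques and 2.06 over pistils, a difference of -1.58 ± 0.46 (adjusted p = 0.016). The RECQSIM call was lost without 1DBP replicate 2 (adjusted p = 0.13) and without replicate 2 of the 3DPP or the 8DPP siliques (adjusted p = 0.053 for each). RECQI1 averaged -0.73 over siliques and -1.58 over pistils, and its difference of 0.85 ± 0.48 was not called (adjusted p = 0.25). The photosynthesis markers PSAN (1.56) and LHCB4.1 (1.62 and 1.51 on its 2 probes) were called higher in siliques, LHB1B2 (0.43) and ATPC1 (-0.33) were not, and the dividing-cell markers had 1 value each in 8DPP siliques and were not tested. The part of these markers in the members' differences was not tested.

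**Figure D4:**
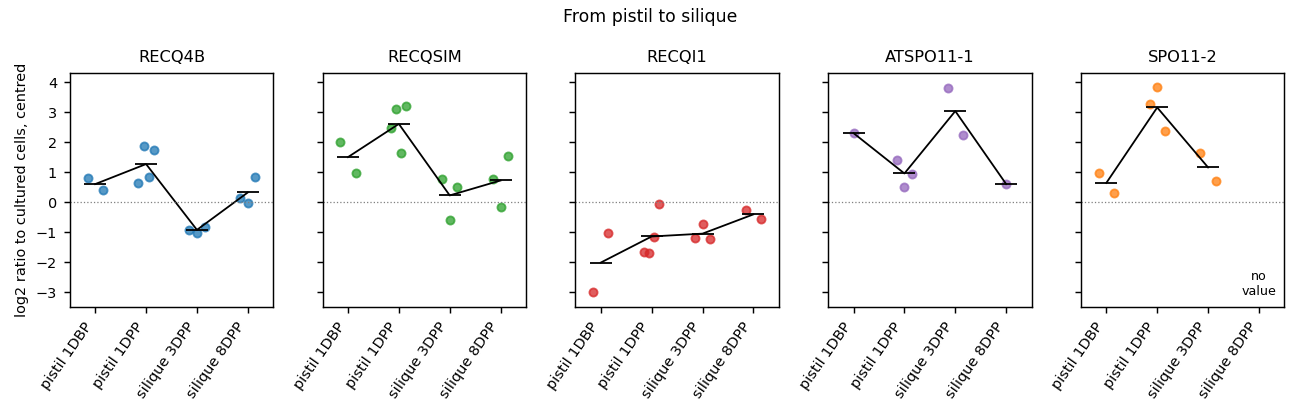
Log2 ratio of organ over cultured cells, centred (y axis), in the 2 pistil and 2 silique groups (x axis) for each gene; points are arrays and the line joins group means. RECQ4B and RECQSIM peak in 1DPP pistils and are low in 3DPP siliques, where RECQ4B gave -0.94, -1.02 and -0.82, while ATSPO11-1 is highest in 3DPP siliques at 3.82 and 2.25; SPO11-2 has no value in 8DPP siliques.

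Seedling organs in light were set against the same organs in dark through the common reference. In cotyledons, where 8.08% of probes were called, none of the 5 members was. RECQ4B gave 0.03 and 0.08 in light, against -0.68, -1.19 and -0.69 in dark, a difference of 0.91 ± 0.40 (adjusted p = 0.19). The 2 direct cotyledon arrays gave -0.84 and -0.50 for RECQ4B, the opposite sign, and 0.36 and -0.47 for ATSPO11-1. Their direction is likely light over dark, since PSAN read 2.77 and 3.13 on them, but it is not stated. In roots, where 6.21% of probes were called, none of the 4 members tested was, and their differences ran from -1.23 ± 0.76 for RECQI1 to 1.33 ± 0.77 for RECQSIM.
In hypocotyls, 37.4% of probes were called, 4318 of 5248 of them higher in light, with a median change of 0.65 over the probes tested. The 2 light hypocotyl arrays had 19267 and 19326 values. ATSPO11-1 was called, 1 of 2 members tested. It gave -0.15 and 0.23 in light, against 1.71 and 1.69 in dark, with no overlap. The difference was -1.66 ± 0.62 (adjusted p = 0.035). With any of the 4 arrays left out the difference was -1.47 to -1.85, and it was not called (adjusted p from 0.068 to 0.15), in fits where 1 array stands against 2 and is assumed to vary like those of the other groups. It was also not called with uncentred arrays (-1.26, adjusted p = 0.11) or after scaling (-1.03, adjusted p = 0.26). Photosynthesis markers were called higher in light in the same comparison, PSAN by 3.12 and LHCB4.1 by 2.79 and 3.98 on its 2 probes. The others, LHB1B2 and ATPC1, had 1 value each in light hypocotyls and were not tested. Of the root markers, the peroxidase AT4G30170 averaged 5.33 in dark hypocotyls, close to its 5.34 in dark roots, and had no value in light hypocotyls, while AT5G17820 averaged 2.88 in light and 2.08 in dark hypocotyls, against 5.06 in dark roots. The part of these markers in the ATSPO11-1 difference was not tested.
The light response of ATSPO11-1 in cotyledons exceeded that in hypocotyls by 2.32 ± 0.84 (adjusted p = 0.041), a test of the difference added after the data had been seen, in which 27.6% of probes were called. Of its 3777 calls, 3220 had the lower light response in cotyledons, and the median difference over the probes tested was -0.67. RECQ4B differed little between light and dark hypocotyls (0.03 ± 0.44, 95% interval -0.86 to 0.93). In dark hypocotyls RECQI1 and SPO11-2 had 1 value each, 2.30 and 2.17, above the light arrays at -0.96 and -1.35 for RECQI1 and at -1.47 and -0.77 for SPO11-2, and neither was tested. The direct hypocotyl arrays gave 0.52 and 0.11 for ATSPO11-1, -4.78 and -0.27 for SPO11-2, and -0.19 and -0.09 for RECQI1. Their direction is not settled. Every photosynthesis marker read below 0 on both, PSAN at -1.91 on each, although PSAN was higher in light by 3.12 through the reference. Read as for the cotyledon arrays, that would be dark over light, but it is not stated.

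**Figure D5:**
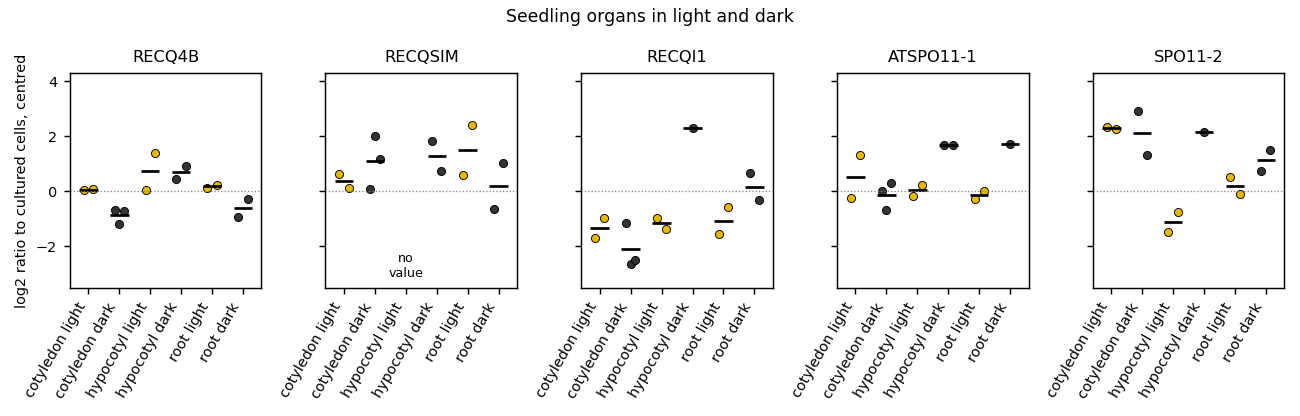
Log2 ratio of organ over cultured cells, centred (y axis), of each gene in cotyledon, hypocotyl and root in light (yellow) and dark (black); points are arrays and bars are means. ATSPO11-1 lies at -0.15 and 0.23 in light hypocotyls and at 1.71 and 1.69 in dark hypocotyls; RECQSIM has no value in light hypocotyls.

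The 5 genes did not share 1 pattern across organs. Over group means, the closest pair was RECQ4B and RECQSIM, with a Pearson correlation of 0.61 and a Spearman correlation of 0.58 over 16 groups. The other 9 pairs ran from -0.22 to 0.32 (Pearson), and ATSPO11-1 with SPO11-2 stood at 0.22. These are descriptions: the groups share the cultured-cell reference, and groups with 1 array count as the others do. Among the named genes with a value in every group of the member, the 3 most alike to RECQSIM were AR791 (Pearson correlation 0.66), RECQ4B (0.61) and AT4G33130 (0.61). Those most alike to RECQ4B were AT3G07210 (0.63), AT5G42740 (0.63) and AT3G26590 (0.62).
For RECQI1 they were AT3G47965 (0.90), NdhN (0.78) and AT5G66420 (0.77). For ATSPO11-1 they were AT2G44510 (0.69), NET1C (0.66) and AT4G33130 (0.64), and for SPO11-2 they were AT3G57470 (0.70), AT1G20870 (0.62) and AT5G24810 (0.61). The genes compared numbered 1486 for RECQ4B, RECQI1 and ATSPO11-1, 1610 for RECQSIM and 1509 for SPO11-2.

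Of a list of 92 genes of recombination, meiosis and DNA repair, 8 had a named probe, the 5 members and 3 others. None of the 20 listed homologous recombination genes and none of the 19 meiotic axis and recombination genes was among them, so the partners of SPO11 and RecQ proteins are not described here. WRNEXO, an exonuclease related to that of the human Werner helicase, was called higher than cultured cells in 7 of 16 groups and lower in none. POLH, a translesion DNA polymerase, was called higher in 6 of 14 groups and lower in none. ATLIG4, the DNA ligase of end joining, was called lower in 9 of 17 groups and higher in none. Over all probes, 42.4% of such tests gave a call, and the counts of WRNEXO and POLH lie near that share.
ATLIG4 also differed among the 17 organ groups (F-test, adjusted p = 3.3e-07), as 94.8% of probes tested did. In the comparisons between organs, 2 of these were called: POLH was higher in 1DBP pistils than in petals and sepals by 2.11 ± 0.63 (adjusted p = 0.0090, with 34.1% of probes called), and ATLIG4 was lower in light than in dark hypocotyls, by -1.31 ± 0.40 (adjusted p = 0.0094, with 37.4% of probes called). None of the 3 was called between the 3DPP silique and the 1DPP pistil, where WRNEXO differed by -0.18, POLH by -0.18 and ATLIG4 by -0.42.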

How the data were processed

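The authors deposited log2 ratios of the RNAs on each 2-colour array, down to a ratio of 0.001, per the values of the deposited table. Image analysis, background subtraction and normalization are not given in the sources used here, nor is signal over background. Spots of the 3 control accessions (17 spots each) were averaged, which gave 27600 features, here called probes. Of 2676 probes in the annotation table, 2032 carry 1 gene symbol and 644 several, and 2029 were found in RefSeq TAIR10.1 through their Entrez identifiers, from which names only were taken. The 182 probes from genomic clones and accessions shared by more than 2 probes were left unnamed, leaving 1784 probes for 1747 genes. RECQ4A has no named probe here, and whether the RECQ4B probe also reads its transcript was not tested. No sequences are printed.

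Each array was centred on its median, and 1 mean per group was fitted to the 51 arrays together, with variances moderated as in limma 3.58.1 (R 4.3.3), a fit tested on simulated data. Adjusted p-values come from a two-sided moderated t-test on that fit, with Benjamini-Hochberg adjustment over all probes of a comparison (the F-test has no sides). A probe was tested if each of the groups compared had at least 2 values (with an array left out, probes that met this on all arrays were tested, some with 1 value left in a group), and a call took an adjusted p under 0.05 and a 2-fold change (no fold for the F-test). The genes named are the members, the listed repair genes and the 3 genes most alike to each member. Members, lists, markers and comparisons were chosen with earlier results of these data known. Alternatives were no centring, centring on named probes, scaling, complete probes, separate spots, each array left out, fewer arrays in the fit, the replicate block and the labelling channel.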

Additional observations from a re-analysis of the deposited data

Results flagged for a closer look

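ATSPO11-1 was flagged because its light responses in cotyledons and hypocotyls differed in a test of the difference itself. Through the reference, light minus dark was 0.66 ± 0.57 in cotyledons and -1.66 ± 0.62 in hypocotyls, a difference of 2.32 ± 0.84 (adjusted p = 0.041, moderated t-test). In cotyledons 1 of the 2 light arrays lay above all 3 dark arrays, and in hypocotyls both light arrays lay below both dark arrays. The direct light against dark cotyledon arrays, likely light over dark, split in sign at 0.36 and -0.47, and the direct hypocotyl arrays, with no settled direction, gave 0.52 and 0.11. Photosynthesis markers read below 0 on those hypocotyl arrays, PSAN at -1.91 on each. The test called 27.6% of all probes, and 3220 of its 3777 calls had the lower light response in cotyledons. The difference was 1.53 (adjusted p = 0.25) without light cotyledon replicate 2 and 3.11 (adjusted p = 0.016) without replicate 1. It was called without dark cotyledon replicate 3 (adjusted p = 0.036) but not without dark cotyledon replicate 1 (adjusted p = 0.056) or 2 (adjusted p = 0.087), nor without any 1 of the 4 hypocotyl arrays (2.13 to 2.51, adjusted p from 0.059 to 0.11), where 1 hypocotyl array is assumed to vary like those of the other groups. With uncentred arrays it was 1.84 (adjusted p = 0.10), and with centring on named probes 2.48 (adjusted p = 0.035).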

How the results depend on the processing

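For the 5 genes, 1388 tested values were recomputed under the alternatives. Of these, 1199 kept their call, or had none in either fit and moved by less than their standard error. A call was lost by 75 and gained by 34, and 80 without a call in either fit moved by more than their standard error. Of values called in either fit, 0 reversed direction, while changes of sign among uncalled values were not counted. Counts of called probes moved more, and the cause was not tested except where fewer probes or arrays were used. Without centring, 4837 probes were called between 8DPP and 3DPP siliques (3207 with centring) and 574 between light and dark roots (1479). After scaling, counts were 1785 for flower against vegetative organs (2725), 834 for stamens (1757) and 777 for light roots. With complete probes only, fewer probes being tested, they were 3131 for the F-test (10438), 2700 for 8DPP siliques against cultured cells (8391), 936 between siliques and 544 for siliques against pistils (2004). With only the arrays compared, they were 33 between pistils (263), 441 between 3DPP siliques and 1DPP pistils (729) and 315 between siliques. In the same setting they were 1007 for light cotyledons (2045), 2090 for light hypocotyls (5248) and 0 for light roots. For light roots the moderated t-test gave 2847 probes at an unadjusted p under 0.05. With the organ's channel as a term, 1721 were called for flower organs. Leaving out 1 array gave 1066 to 1845 for light cotyledons, 106 to 325 between pistils, 4713 to 8239 for 1DBP pistils against petals and sepals, 224 to 2199 for light roots and 479 to 742 between 3DPP siliques and 1DPP pistils. The lowest of these came without light cotyledon replicate 1, 1DBP replicate 2 (for both comparisons of that pistil), light root p1 and 3DPP replicate 1; light cotyledon replicate 2 (1120 without it) and dark root replicate 2 (366) also moved a count by over 1.5 times. Centring also set directions: higher calls were 18.5% of calls between 3DPP siliques and 1DPP pistils without it, and 58.0% with it. Same-numbered arrays did not in general deviate together (median correlation 0.0016, lowest -0.14, above 0.1 in 6 of 310 pairs). No pairing by number was seen, which does not exclude one for some arrays. With the replicate block, 549 probes were called between 3DPP siliques and 1DPP pistils, and RECQSIM (-2.18, adjusted p = 0.069) and ATSPO11-1 (2.07, adjusted p = 0.065) were not among them, while against cultured cells 6 calls of the 5 genes were lost and 3 gained. The number of arrays limits every value, and 36 of 45 values limits both SPO11 genes further.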
